A study of Mus musculus with 12 samples.

Results

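A set of 9 genes was followed that are used as general markers of mouse pluripotent cells or carry the developmental pluripotency associated (Dppa) name: Pou5f1, Sox2, Sall4, Utf1, L1td1, Sox15, Dppa2, Dppa4 and Dppa5a. They were named by gene symbol, in a choice made with earlier results of these data known. They are 9 of the 56691 gene IDs in the deposited count tables. All 9 passed the low-count filter, which 13230 genes passed in all. The cells were R1, a male mouse embryonic stem cell line of 129/Sv background, grown on gelatin in serum with LIF, and total RNA was sequenced from its 3′ ends with an oligo(dT)-primed QuantSeq protocol. The 12 libraries formed 4 groups of 3. The groups were 2i on day 6, 2i with 25 µM of an MRE11 inhibitor on day 6, 2i with 50 µM of the inhibitor on day 6, and the starting serum and LIF culture on day 0, which the labels name primed. By convention 2i is a MEK inhibitor combined with a GSK3 inhibitor, and MRE11 is the nuclease of a DNA break repair complex; the labels name the inhibitor only as MRE11i. No serum and LIF culture of day 6 was analysed here, so 2i cannot be told apart from the change of medium and the 6 days of culture.

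Pou5f1 (OCT4) and SOX2 bind composite DNA sites together and hold up the network that keeps embryonic stem cells undifferentiated, and SALL4 is a zinc finger factor of the same network that recruits the NuRD repressor complex. DPPA2 and DPPA4 are partner proteins with SAP DNA-binding domains that sit at developmental promoters and, in mouse cells, act upstream of Dux and the Zscan4 genes. UTF1 is a chromatin protein of undifferentiated cells, L1TD1 is an RNA-binding protein derived from the LINE-1 retrotransposon, SOX15 is a SOX factor that can also partner OCT4, and DPPA5A is a KH-domain RNA-binding protein.

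Utf1, L1td1 and Sox15, the 3 genes called both in 2i against primed cells and at 50 µM against 2i, are shown with the 250 bases before their RefSeq start (build GRCm38.p6, all on the plus strand), so that their starts can be read side by side. The 50 µM calls of Utf1 and Sox15 held in all 16 alternative settings, and that of L1td1 in 8 of 16. The stretches lie at chr7:139943606-139943855 for Utf1, chr4:98726504-98726753 for L1td1 and chr11:69654787-69655036 for Sox15. Capitals mark GC boxes, written GGGCGG on either strand. The gene starts given further below come from GENCODE and differ from the RefSeq starts. For Utf1 and L1td1 the stretch runs past the GENCODE start, and the last GC box of Utf1 lies past it. For Sox15 the stretch ends before the GENCODE start.
Utf1: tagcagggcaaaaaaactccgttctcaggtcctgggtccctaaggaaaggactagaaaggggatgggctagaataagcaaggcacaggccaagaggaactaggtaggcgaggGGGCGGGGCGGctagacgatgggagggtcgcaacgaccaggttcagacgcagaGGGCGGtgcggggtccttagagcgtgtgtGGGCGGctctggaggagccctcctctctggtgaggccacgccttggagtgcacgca
L1td1: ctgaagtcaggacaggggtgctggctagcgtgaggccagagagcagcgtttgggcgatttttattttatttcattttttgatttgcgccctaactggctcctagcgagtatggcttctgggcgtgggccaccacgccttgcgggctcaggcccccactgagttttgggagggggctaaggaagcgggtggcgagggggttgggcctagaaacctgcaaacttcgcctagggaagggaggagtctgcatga
Sox15: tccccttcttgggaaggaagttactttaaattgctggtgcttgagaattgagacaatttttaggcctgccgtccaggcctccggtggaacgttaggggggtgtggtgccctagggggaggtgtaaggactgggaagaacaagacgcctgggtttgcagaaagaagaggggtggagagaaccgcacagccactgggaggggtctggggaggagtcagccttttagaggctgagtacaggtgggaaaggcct
The windows searched ran on for 50 bases past the start, and 5 of the 9 genes had one in the table: Pou5f1, Sox2, Utf1, L1td1 and Sox15. In all, 5 motifs were searched on both strands: the octamer ATGCAAAT, the SOX core CATTGT, the GC box GGGCGG, the E-box CACGTG and TATAAA. The Utf1 window held 4 GC boxes, the first pair overlapping by 1 base, and no match to the other motifs; L1td1 and Sox15 matched none of them. A GC box was present in 35.7% of all 32851 windows, the SOX core in 12.6%, TATAAA in 13.6%, the E-box in 7.15% and the octamer in 1.74%. The Utf1 window was 62.0% G or C with 17 CpG, an observed to expected CpG ratio of 0.615. The L1td1 window was 58.7% G or C with 14 CpG and a ratio of 0.559, and the Sox15 window was 56.0% G or C with 5 CpG and a ratio of 0.239. Over all windows the median was 52.7% G or C and a ratio of 0.384, so Sox15 was the member of this trio below the median ratio. The window of Sox2, whose level was not called different in any comparison, held 2 GC boxes, 27 CpG and a ratio of 0.819. Such matches describe the letters only.

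Each library held 5894561 to 7060126 counts. Levels are given below as CPM, the count per 1000000 of the TMM-adjusted library size; reads come from one end of a transcript, so levels are compared between samples and never between genes. Replicate 1 stood apart in all 4 groups: the chi-square per degree of freedom between replicates was 8.82 to 11.7 for pairs with replicate 1 and 2.48 to 6.64 for replicates 2 and 3. Nothing in the labels says that replicates came from separate cultures, so the p-values reflect library-to-library spread, which may be technical. Tests were edgeR quasi-likelihood tests across all 13230 genes, and a gene was called where p, adjusted by Benjamini-Hochberg, was below 0.05. All comparisons of an inhibitor dose with 2i share the same 3 libraries of 2i alone. Of 8 embryonic stem cell markers outside the set 7 passed the filter. In 2i against primed cells, where 20% of all genes were called higher and 20.4% lower, 3 of these markers rose and 1 fell. Alkaline phosphatase Alpl was among those that rose (1.94 ± 0.09, edgeR adjusted p = 3.82e-13). The adhesion gene Epcam fell (−1.85 ± 0.11, edgeR adjusted p = 9.88e-12). With 50 µM against 2i edgeR, DESeq2 and limma voom called 0 of these markers, where edgeR called 15.1% of all genes. At an unadjusted p below 0.05, 1 marker was higher (Esrrb, 0.24 ± 0.09) and 1 lower (Cdh1, −0.24 ± 0.11).

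Of the 9 genes, 5 fell in 2i against primed cells, none rose, and 4 were not called. Utf1 fell most, to 0.199 times its primed level, followed by Sox15, Dppa4, L1td1 and Dppa2. Over all genes tested in this comparison 40.4% were called, with 20.4% of all genes lower and 20% higher. The median log2 fold change of the 9 genes was −0.44, against −0.01 over all genes. The same 5 genes were called lower under all 16 alternative settings. Unadjusted p-values below 0.05 were found for 1 gene higher and 5 lower, and DESeq2 called 0 higher and 5 lower. In bulk RNA, fewer cells of a type and less RNA per cell cannot be told apart.

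At 25 µM of the inhibitor, edgeR called none of the 9 genes against 2i alone, where 0.937% of all genes were called (0.454% higher and 0.484% lower). At an unadjusted p below 0.05 there was 1 gene, Sox15, and neither DESeq2 nor limma voom called any. Apart from Sox15, Utf1 and Pou5f1, the 95% intervals of the log2 fold changes at 25 µM lay between −0.32 (Dppa5a) and 0.34 (L1td1). At 50 µM, 2 genes rose against 2i alone, Utf1 and L1td1, and 1 fell, Sox15, where 15.1% of all genes were called (7.01% higher and 8.07% lower). The median log2 fold change of the 9 genes was 0.03, against 0.01 over all genes. With library totals alone as the scaling, the higher genes were 30.2% of all calls in that comparison, against 46.5% with TMM factors. With the replicate number as a block, which pairs these libraries, 2 of the 9 genes rose and 2 fell, Dppa5a being the added one, and the calls over all genes went up to 3240, against 1994 without the block. Between 50 µM and 25 µM, edgeR called none of the 9 genes, where 1.16% of all genes were called; 1 had an unadjusted p below 0.05, and DESeq2 and limma voom called none.

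**Figure D1:**
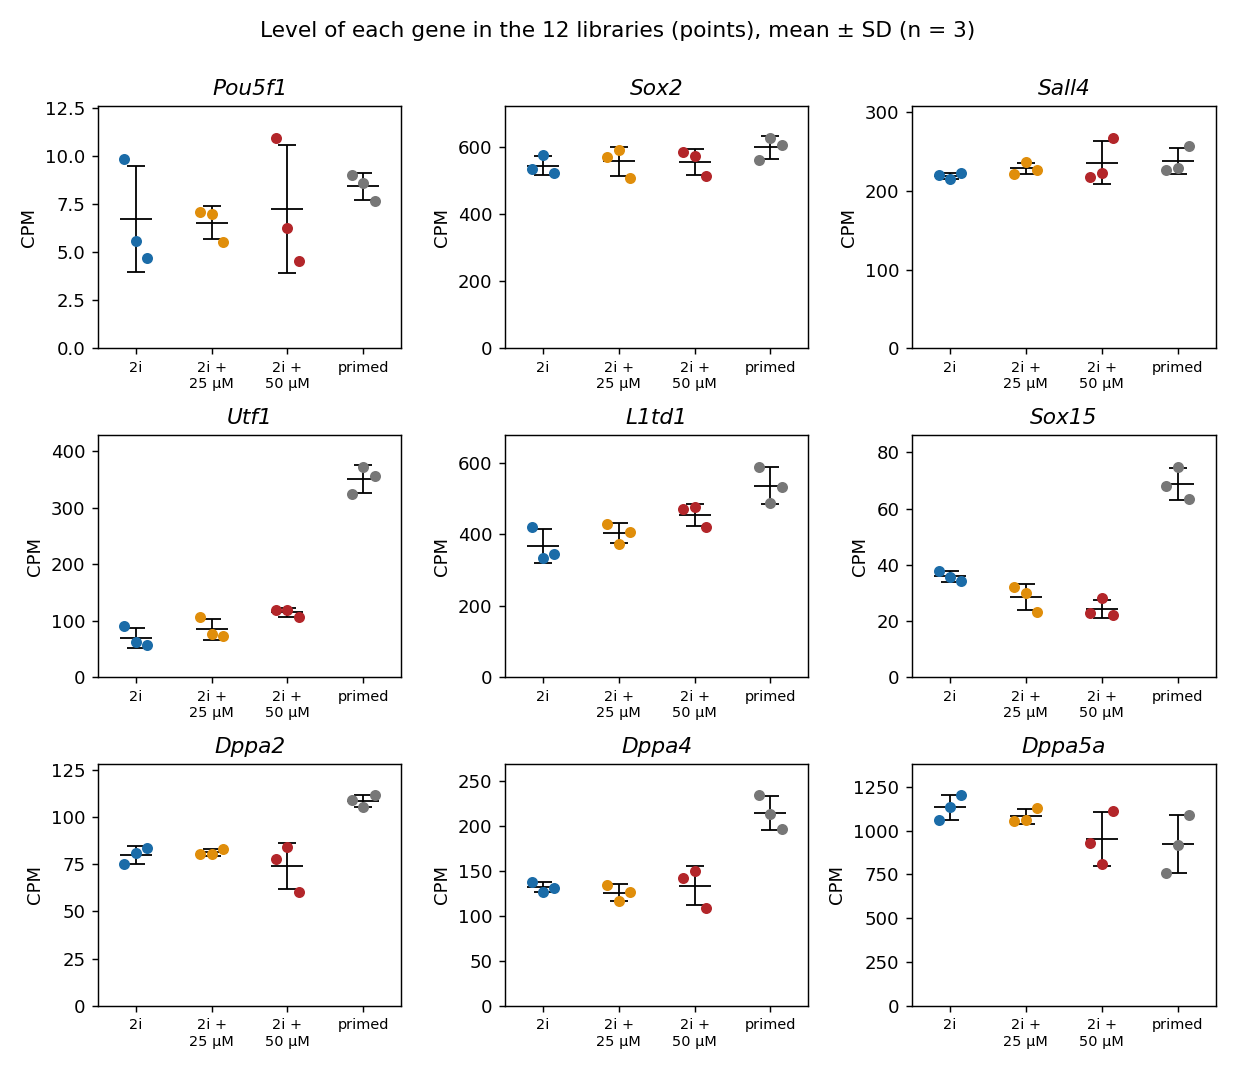
Level of each of the 9 genes in CPM (y axis, from 0) in the 12 libraries, grouped on the x axis as 2i, 2i with 25 µM, 2i with 50 µM and primed; points are libraries and bars the mean ± SD (n = 3). Utf1 sat between 56.8 and 119 CPM in the 9 six-day libraries, below the 325 to 373 CPM of primed cells, while the levels of Sox2 overlapped in all 4 groups.

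Pou5f1 (ENSMUSG00000024406, GRCm38 chromosome 17, 35506018 to 35510772, plus strand) carried only 28 to 64 counts per library, 548 in all. Its level was 9.83, 5.60 and 4.68 CPM in 2i, 7.06, 6.996 and 5.54 CPM in 2i with 25 µM, 10.9, 6.27 and 4.53 CPM in 2i with 50 µM, and 9.01, 8.57 and 7.63 CPM in primed cells. Replicate 1 was the highest in each group. The 25 µM libraries lay below all primed libraries, and the other groups overlapped. The log2 fold change was −0.32 ± 0.28 (SE) for 2i against primed, with a 95% interval of −0.92 to 0.27, and 0.10 ± 0.29 for 50 µM against 2i, with an interval of −0.51 to 0.70. Changes within those intervals were not detectable at this depth. The transcript has 1 pseudogene copy, Gm5712, at 87.2% identity over 1074 bases; it carried 0 counts, and so did the antisense gene Gm19553 that overlaps Pou5f1 by 1475 bases. The sources used here do not give how reads that match several places were counted, so the level of Pou5f1 is uncertain.

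Sox2 (ENSMUSG00000074637, chromosome 3, 34650405 to 34652461, plus strand), the DNA-binding partner of OCT4, was measured with 3162 to 3907 counts per library. It had 534, 575 and 522 CPM in 2i, 570.4, 592 and 508 CPM in 2i with 25 µM, 584, 573 and 512 CPM in 2i with 50 µM, and 562, 627 and 607 CPM in primed cells. The 4 groups overlapped, and no comparison called it: the log2 fold change was −0.14 ± 0.09 for 2i against primed (95% interval −0.32 to 0.04) and 0.03 ± 0.09 for 50 µM against 2i (95% interval −0.15 to 0.21). Sox2 lies inside the long noncoding gene Sox2ot on the same strand, which carried 5 to 17 counts per library; with these added, the value for 2i against primed was −0.14.

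Sall4 (ENSMUSG00000027547, chromosome 2, 168748332 to 168767943, minus strand) had 220.2, 215 and 223 CPM in 2i, 222, 237 and 227 CPM in 2i with 25 µM, 218, 223 and 268 CPM in 2i with 50 µM, and 227, 229 and 257 CPM in primed cells. The 3 libraries of 2i lay below the 3 of primed cells, and the groups with inhibitor overlapped both. The difference was small, at −0.12 ± 0.09 for 2i against primed (95% interval −0.30 to 0.07), and was not called; 50 µM against 2i gave 0.11 ± 0.09 (95% interval −0.08 to 0.29). The antisense gene Gm14261 overlaps Sall4 and carried 5 counts over all libraries.

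Utf1 (ENSMUSG00000047751, chromosome 7, 139943789 to 139945112, plus strand) showed the largest differences of the set. It had 89.8, 62.9 and 56.8 CPM in 2i, 106, 76.5 and 72.1 CPM in 2i with 25 µM, 119, 119 and 106 CPM in 2i with 50 µM, and 325, 373 and 356 CPM in primed cells. Every six-day library lay below every primed library, and the 3 libraries with 50 µM lay above the 3 of 2i alone; those with 25 µM overlapped 2i. In 2i against primed cells Utf1 fell by 2.33 ± 0.16 on the log2 scale (edgeR adjusted p = 1.06e-08). With 50 µM, against 2i alone, it rose by 0.71 ± 0.16, a 1.64-fold increase (edgeR adjusted p = 0.00743), which left it at 0.326 times the primed level (log2 fold change −1.62 ± 0.15, edgeR adjusted p = 4.86e-07). The value at 25 µM against 2i was 0.28 ± 0.16 (95% interval −0.06 to 0.62) and was not called. Against 25 µM, 50 µM gave 0.43 ± 0.16 with an edgeR adjusted p of 0.253; without replicate 1 of the 25 µM group this p was 0.0308, and without replicate 1 in any group 0.00196. The slope over 0, 25 and 50 µM was 0.36 ± 0.08 per 25 µM (edgeR adjusted p = 0.00801). The calls for 2i against primed, 50 µM against 2i and the slope were kept when any one library was left out.

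L1td1 (ENSMUSG00000087166, chromosome 4, 98726734 to 98738480, plus strand), whose protein works with LIN28 in human embryonic stem cells, had 420.1, 333 and 345 CPM in 2i, 427, 373 and 408 CPM in 2i with 25 µM, 469.6, 475 and 419 CPM in 2i with 50 µM, and 589, 487 and 532 CPM in primed cells. All 2i libraries were below all primed libraries, while those with 50 µM overlapped 2i at its highest library. L1td1 fell by 0.55 ± 0.10 on the log2 scale in 2i against primed cells (edgeR adjusted p = 0.000119), a call that no single library ended. With 50 µM it was higher again, by 0.31 ± 0.10 against 2i alone (edgeR adjusted p = 0.0384; with the replicate block 0.000729). That call rested on single libraries: the adjusted p was 0.18 without 2i replicate 2, 0.143 without 2i replicate 3, 0.142 without 50 µM replicate 1 and 0.105 without 50 µM replicate 2. It also ended with RLE scaling (0.0513), library totals alone (0.0777), the stricter filter (0.061) and a fit of only the groups compared (0.0584). The slope with dose was 0.16 ± 0.05 per 25 µM (edgeR adjusted p = 0.0314) and was not called without the same 4 libraries, with p of 0.142, 0.113, 0.1 and 0.0885 in that order, nor with library totals alone (0.0688). Between 50 µM and primed cells the value was −0.24 ± 0.10 (edgeR adjusted p = 0.0565). It passed there with RLE scaling (0.035), library totals alone (0.0236), DESeq2 (0.0411), no low-count filter (0.0468), the stricter filter (0.0358) and without primed replicate 2 (0.0352). With 25 µM against primed L1td1 fell by 0.41 ± 0.10 (edgeR adjusted p = 0.00186).

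Sox15 (ENSMUSG00000041287, chromosome 11, 69655314 to 69656727, plus strand) was lower in every six-day library than in every primed one. It had 37.8, 35.8 and 34.0 CPM in 2i, 32.1, 30.1 and 23.1 CPM in 2i with 25 µM, 22.7, 28.0 and 22.0 CPM in 2i with 50 µM, and 67.9, 75.0 and 63.4 CPM in primed cells. The 3 groups of day 6 stood in order of dose, with 25 µM and 50 µM both wholly below 2i alone and overlapping each other. Sox15 fell by 0.94 ± 0.12 on the log2 scale in 2i against primed cells (edgeR adjusted p = 2.19e-06). With 50 µM it fell, against 2i alone, by a further 0.56 ± 0.13 (edgeR adjusted p = 0.00666), to 0.354 times the primed level. The value at 25 µM against 2i was −0.34 ± 0.13 (95% interval −0.61 to −0.07, edgeR adjusted p = 0.255) and was not called. The slope was −0.28 ± 0.07 per 25 µM (edgeR adjusted p = 0.00644). Leaving out any one library ended none of the calls for 2i against primed, 50 µM against 2i or the slope. Sox15 and Utf1, both lower in 2i, differed in the sign of their change at 50 µM. The protein-coding gene Mpdu1 overlaps the end of Sox15 by 31 bases on the other strand, and with counting that ignores strand their reads there could not be told apart; Mpdu1 had a log2 fold change of −0.02 in 2i against primed and −0.06 at 50 µM against 2i, neither called.

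Dppa4 (ENSMUSG00000058550, chromosome 16, 48283733 to 48294237) and Dppa2 (ENSMUSG00000072419, chromosome 16, 48303908 to 48319723) lie on the plus strand with 9670 bases between them. Dppa4 had 138, 127 and 131 CPM in 2i, 135, 116 and 127 CPM in 2i with 25 µM, 142, 151 and 109 CPM in 2i with 50 µM, and 234, 213 and 197 CPM in primed cells. Dppa2 had 74.9, 81.0 and 83.9 CPM in 2i, 80.3, 80.4 and 83.4 CPM in 2i with 25 µM, 78.1, 84.1 and 60.2 CPM in 2i with 50 µM, and 109, 105 and 112 CPM in primed cells. Both partners were lower in every six-day library than in every primed one, and their 3 six-day groups overlapped. In 2i against primed cells Dppa4 fell by 0.70 ± 0.11 on the log2 scale (edgeR adjusted p = 1.43e-05) and Dppa2 by 0.44 ± 0.10 (edgeR adjusted p = 0.0015). Neither was called for the inhibitor: at 50 µM against 2i the log2 fold change was 0.02 ± 0.11 for Dppa4 (95% interval −0.20 to 0.24) and −0.11 ± 0.11 for Dppa2 (95% interval −0.33 to 0.11). At 50 µM against primed, Dppa4 fell by 0.68 ± 0.11 (edgeR adjusted p = 2.06e-05) and Dppa2 fell by 0.55 ± 0.10 (edgeR adjusted p = 0.000182). Pseudogene copies carried 16 counts for Dppa4 and 1 count for Dppa2 over all libraries, against 11578 and 6573 counts of the genes themselves.

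Dppa5a (ENSMUSG00000060461, chromosome 9, 78367052 to 78368177, minus strand) was the member with a positive value in 2i. It had 1060, 1136 and 1202 CPM in 2i, 1057, 1058 and 1128 CPM in 2i with 25 µM, 931, 810 and 1114 CPM in 2i with 50 µM, and 759, 916 and 1092 CPM in primed cells. The primed libraries were spread widely and the highest of them lay within the range of 2i. The log2 fold change for 2i against primed was 0.30 ± 0.12 (95% interval 0.05 to 0.55, edgeR adjusted p = 0.0535), just outside the threshold. It passed without primed replicate 3 (0.43, adjusted p = 0.0086), without 2i replicate 1 (0.36, 0.041), with library totals alone (0.0461), with limma voom (0.0405), with no low-count filter (0.00354) and with only the groups compared (0.0397). At 50 µM against 2i the value was −0.25 ± 0.12 (edgeR adjusted p = 0.166); with the replicate block it was −0.26 with an adjusted p of 0.0124, with no low-count filter the p was 0.0429, and without 50 µM replicate 3 it was −0.41 with a p of 0.0325. The slope was −0.13 ± 0.05 per 25 µM (edgeR adjusted p = 0.106; 0.00689 with the block; 0.0379 with library totals alone; 0.0246 without 50 µM replicate 3). Reads of Dppa5a may be shared: 8 pseudogene copies carried 516 counts, 0.66% of its own, and Pigp shares 417 bases at 95.9% identity reaching to 6 bases from the 3′ end, where this protocol reads, and carried 90 to 151 counts per library.

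**Figure D2:**
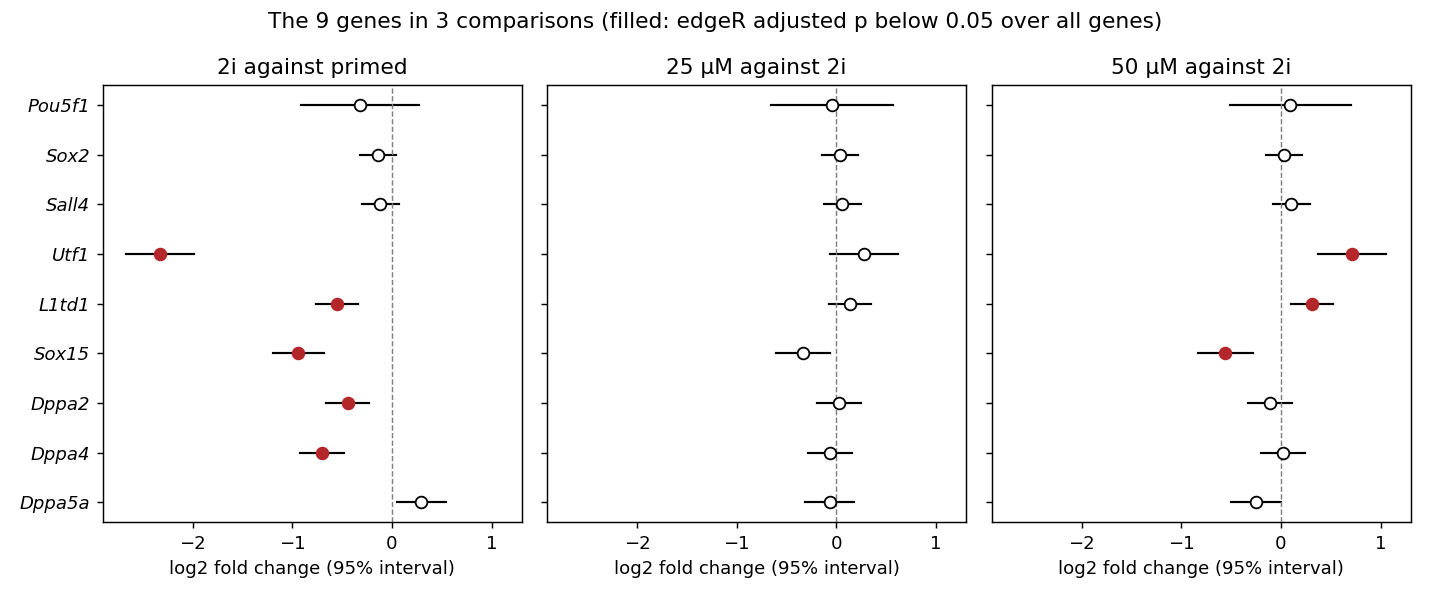
Log2 fold change (x axis) with its 95% interval for the 9 genes (rows) in 2i against primed, 25 µM against 2i and 50 µM against 2i; filled points passed an edgeR adjusted p below 0.05 over all genes. Filled points lie left of 0 for 5 genes in the first panel, are absent in the second, and are 2 to the right (Utf1, L1td1) and 1 to the left (Sox15) in the third.

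Against primed cells, 2i with 25 µM gave 5 lower genes of the 9, where 42.3% of all genes were called (21.3% higher and 21% lower): Utf1 (−2.05 ± 0.16), Sox15 (−1.27 ± 0.13), Dppa4 (−0.77 ± 0.11), Dppa2 (−0.42 ± 0.10) and L1td1, all with an edgeR adjusted p of at most 0.0024. With 50 µM there were 4, where 44.3% of all genes were called (22.6% higher and 21.7% lower): Utf1, Sox15 (−1.50 ± 0.13), Dppa4 and Dppa2. These comparisons share the primed libraries with that of 2i alone. The dose slope called 3 of the 9 genes, Utf1 and L1td1 rising (L1td1 not with library totals alone) and Sox15 falling, where it called 15.2% of all genes, 7.11% rising and 8.06% falling; the rising share of all calls was 46.9% with TMM factors and 30.4% with library totals alone.

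The partners and network neighbours of these genes moved in both directions. Of 32 other pluripotency genes, all tested, 9 rose and 10 fell in 2i against primed cells and 13 were not called, with a median log2 fold change of −0.03 against −0.01 over all genes. Over all genes tested, 20% were called higher and 20.4% lower in this comparison. Tfcp2l1, a naive network factor, had 475, 501 and 507 CPM in 2i against 82.5, 86.4 and 83.0 CPM in primed cells and rose by 2.56 ± 0.09 (edgeR adjusted p = 3.98e-15). Lin28a, whose protein blocks maturation of let-7 miRNAs, had 22.7, 19.9 and 23.5 CPM in 2i against 193, 178 and 161 CPM in primed cells and fell by 3.01 ± 0.12 (edgeR adjusted p = 5.82e-14). With 50 µM against 2i alone, 4 of the 32 rose and 5 fell, where 7.01% of all genes were called higher and 8.07% lower. Mybl2, a cell cycle transcription factor, had 181, 164 and 174 CPM with 50 µM against 102, 93.7 and 104 CPM in 2i and rose by 0.79 ± 0.08 (edgeR adjusted p = 2.55e-06). Fbxo15, an OCT4 and SOX2 target in mouse embryonic stem cells, had 342, 349 and 329 CPM with 50 µM against 418, 469 and 431 CPM in 2i and fell by 0.37 ± 0.08 (edgeR adjusted p = 0.00315). Otx2, a factor of the later epiblast, fell in both comparisons, with −2.58 ± 0.11 in 2i against primed (edgeR adjusted p = 1.13e-13) and −0.49 ± 0.12 at 50 µM against 2i (edgeR adjusted p = 0.00835). For the list of 32 at 50 µM, leaving out 2i replicate 2 gave 3 higher and 2 lower, leaving out 2i replicate 3 gave 4 and 3, and leaving out any one 50 µM library gave 3 and 3; the replicate block gave 8 and 7. At 25 µM 1 of the 32 was called, higher, and none lower by edgeR, with 6 higher and 1 lower at an unadjusted p below 0.05 and 1 higher by DESeq2 and by limma voom. At this dose edgeR called 0.454% of all genes higher and 0.484% lower.

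**Figure D3:**
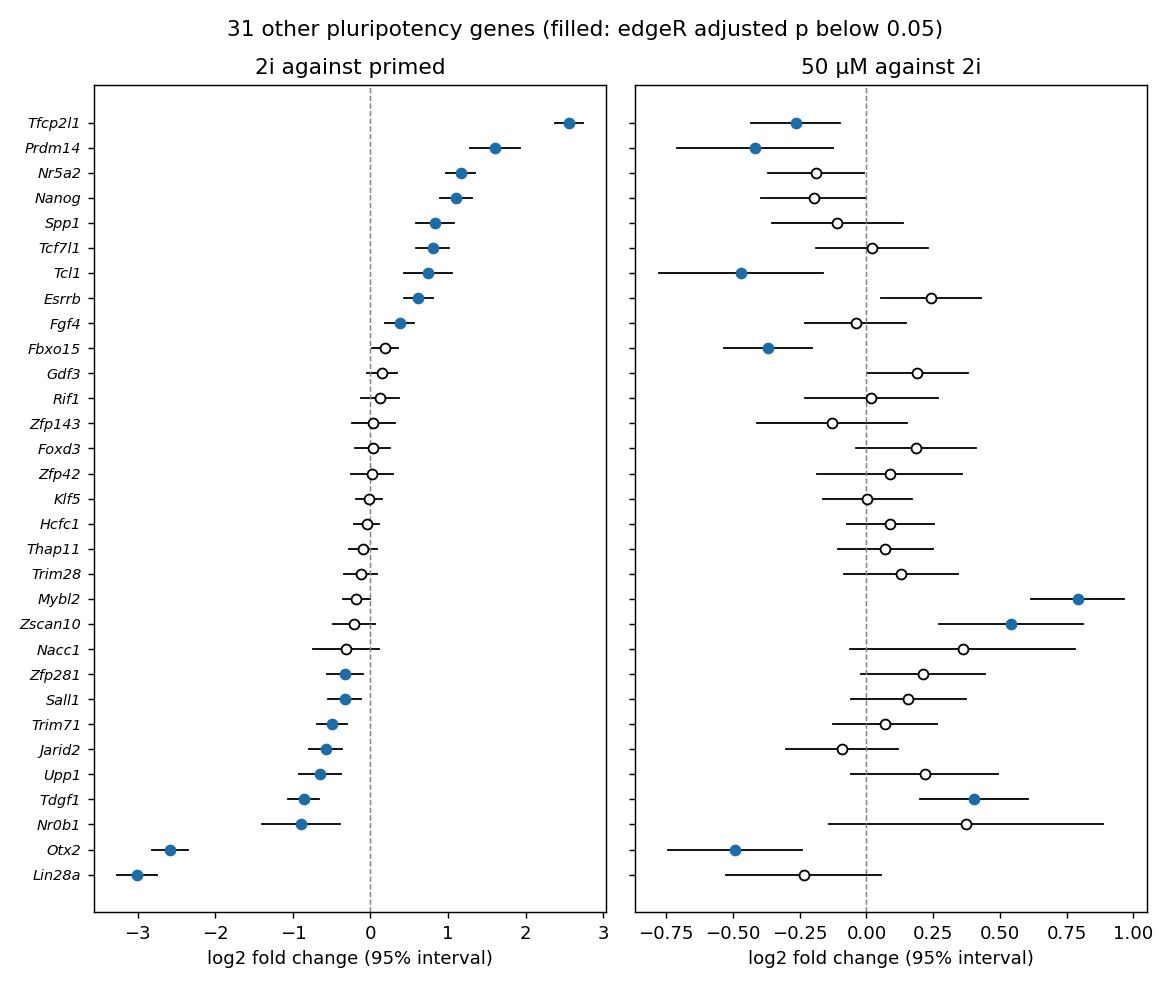
Log2 fold change (x axis, on a different scale in each panel) with its 95% interval for 31 of the 32 other pluripotency genes, ordered by their value in 2i against primed; filled points passed an edgeR adjusted p below 0.05. The left panel spans from −3.01 for Lin28a to 2.56 for Tfcp2l1, and the right panel, 50 µM against 2i, has 3 filled points above 0 with Mybl2 at 0.79 and 5 below it.

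Among relatives of Pou5f1, 7 of 14 other POU genes were tested, and 3 rose and 3 fell in 2i against primed cells. The shares over all genes there were 20% higher and 20.4% lower. Pou3f1, a factor of formative and neural cells, had 2.76, 6.19 and 4.03 CPM in 2i against 83.6, 70.1 and 68.7 CPM in primed cells and fell by 4.09 ± 0.22 (edgeR adjusted p = 2.36e-11). Pou2f2, an octamer-binding factor known from B cells, had 0.92, 0.44 and 0.48 CPM in 2i against 12.3, 5.72 and 6.70 CPM in primed cells and fell by 3.70 ± 0.42 (edgeR adjusted p = 3.12e-07). Of the same 7, 1 rose at 50 µM against 2i, Pou4f2 (1.56 ± 0.43, edgeR adjusted p = 0.0169), on 4 to 26 counts a library; the p was 0.0788 without 2i replicate 1, 0.0573 without 2i replicate 2 and 0.0791 without 50 µM replicate 2. Pou2f1 had 0.16 ± 0.09 there (edgeR adjusted p = 0.261). At 50 µM against 2i, 7.01% of all genes were called higher and 8.07% lower.

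Of 18 other SOX genes 7 were tested, and 1 rose and 3 fell in 2i against primed cells, where 20% of all genes were called higher and 20.4% lower. Without 2i replicate 1 the SOX count was 2 and 3, and without replicate 1 in any group 4 and 3. Sox11 had 2.15, 1.92 and 1.77 CPM in 2i against 76.6, 47.2 and 46.7 CPM in primed cells and fell by 4.85 ± 0.25 (edgeR adjusted p = 1.89e-12). Sox4, a SOX factor of the same group as Sox11, had 11.2, 10.5 and 11.5 CPM in 2i against 95.3, 68.1 and 64.0 CPM in primed cells and fell by 2.78 ± 0.15 (edgeR adjusted p = 4.58e-12). In both genes the groups were far apart. With 50 µM 1 rose and 2 fell against 2i, where 7.01% of all genes were called higher and 8.07% lower. Sox13 fell by 0.80 ± 0.12 (edgeR adjusted p = 8.21e-05). Sox1, a neural SOX factor, gave 1.49 ± 0.42 (edgeR adjusted p = 0.0204), with a p of 0.0776 without 2i replicate 1, 0.0562 without 2i replicate 3 and 0.11 without 50 µM replicate 1. The SOX count at 50 µM changed with single libraries: none rose without 2i replicates 1 or 3 or 50 µM replicate 1, 3 fell without 2i replicate 1, and 1 fell without 2i replicates 2 or 3 or 50 µM replicate 3.

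For SALL4 and the NuRD complex it recruits, 14 genes were tested, of which 3 rose and 4 fell in 2i against primed cells. The same comparison called 20% of all genes higher and 20.4% lower. Mta3, a NuRD subunit, had 68.3, 67.5 and 56.1 CPM in 2i against 102, 124 and 123 CPM in primed cells and fell by 0.86 ± 0.12 (edgeR adjusted p = 2.94e-06). Mbd3, the NuRD scaffold, had 47.3, 41.8 and 43.7 CPM in 2i against 69.6, 61.7 and 64.5 CPM in primed cells and fell by 0.56 ± 0.10 (edgeR adjusted p = 0.000116). Under 50 µM, 2 rose and 2 fell against 2i, where 7.01% of all genes were called higher and 8.07% lower. Mbd3 had 56.4, 62.8 and 66.2 CPM with 50 µM, all above 2i, and rose by 0.48 ± 0.10 (edgeR adjusted p = 0.00276). Sall2, a relative of Sall4, gave −1.04 ± 0.30 (edgeR adjusted p = 0.0215), with a p of 0.0757 and 0.0561 without 2i replicates 2 and 3 and of 0.0786 and 0.0885 without 50 µM replicates 1 and 2. In 2i against primed 2 rose and 2 fell without 2i replicate 3, 3 rose and 2 fell without primed replicate 3, and 2 rose without primed replicates 1 or 2 or 2i replicate 2. At 50 µM, none fell without 2i replicates 2 or 3 or 50 µM replicate 2, 1 fell without 50 µM replicates 1 or 3, and 1 rose without any one of the 2i replicates or without 50 µM replicates 1 or 2.

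Of 9 other genes of the Dppa name and of the KHDC and maternal complex genes, 4 were tested. Khdc3 fell by 0.41 ± 0.10 in 2i against primed cells (edgeR adjusted p = 0.00272). Dppa3, which guards DNA methylation in the zygote, had 24.7, 43.1 and 47.6 CPM in 2i with 50 µM, against 102, 147 and 122 CPM in 2i and 155, 203 and 192 CPM in primed cells. It gave −0.57 ± 0.21 in 2i against primed (edgeR adjusted p = 0.0459; 0.158 without 2i replicate 1, 0.105 without 2i replicate 3, 0.133 without primed replicate 2 and 0.114 without primed replicate 3). Under 50 µM Dppa3 fell by 1.68 ± 0.22 (edgeR adjusted p = 0.000582) and was the 1 of the 4 called, with Khdc3 at 0.15 ± 0.10. Over all genes, 15.1% were called there. The 50 µM libraries of Dppa3 were all far below those of 2i, whereas those of Dppa2, Dppa4 and Dppa5a overlapped 2i.

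Of 11 genes known to depend on DPPA2 and DPPA4 in mouse cells, 5 passed the filter. In 2i against primed cells none rose and 1 fell by edgeR, Mkrn3 (−0.67 ± 0.22, adjusted p = 0.0206; 0.0773 without 2i replicate 1, 0.0618 without 2i replicate 2, 0.108 without primed replicate 1). DESeq2 called none of the 5 there, and edgeR called 20% of all genes higher and 20.4% lower. Zscan4d gave 0.68 ± 0.44 by edgeR in that comparison and was not called. With 25 µM against 2i, where 0.484% of all genes were called lower, 2 of the 5 fell, Zscan4a (edgeR adjusted p = 0.0434) and Zscan4d (edgeR adjusted p = 0.0191). This count was 1 without 2i replicate 1 or 25 µM replicate 2 and 0 without 2i replicates 2 or 3 or 25 µM replicates 1 or 3. With 50 µM 3 of the 5 fell, where 8.07% of all genes were called lower. The 3 were Zscan4a, Zscan4c and Zscan4d, near-identical copies whose reads can be shared. Zscan4d had 0 counts in the 50 µM libraries against 42 over the 2i libraries, at least 13.3-fold lower, and Zscan4a 0 counts against 38, at least 12.1-fold lower, taking 3 counts over the group as the floor. Zscan4c had 1 count with 50 µM against 40 in 2i. No call for Dppa2 or Dppa4 themselves was made at 50 µM against 2i, while both were called lower at 50 µM against primed cells.

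Markers of other cell types that the cultures could hold moved between groups. Summed over 11 fibroblast genes, the level was 14.7 to 26.7 CPM in 2i, 7.81 to 8.52 CPM in 2i with 25 µM, 2.09 to 5.18 CPM in 2i with 50 µM and 57.7 to 176 CPM in primed cells. Fap was at 0 in all of them, and Dcn, Lum and Postn were at 0 in primed cells as well. Acta2, Col1a1 and Col1a2 averaged 50.85, 25.46 and 11.35 CPM in primed cells, with replicate 1 well above the others. In primed replicates 1, 2 and 3, Acta2 had 101.3, 25.05 and 26.17 CPM and Col1a1 had 41.34, 16.81 and 18.23 CPM. Col1a2 had 24.4, 4.035 and 5.609 CPM in the same order. Summed over 9 trophoblast genes the level was 11.5 to 13.2 CPM in 2i, 8.09 to 10.7 CPM with 25 µM, 2.91 to 7.01 CPM with 50 µM and 21.7 to 26.1 CPM in primed cells, with Prl3d1 and Tpbpa at 0 throughout. Not every gene of this list was lower in 2i than in primed cells. Cdx2 carried 1 count over the primed libraries, 38 over those of 2i, 8 with 25 µM and 7 with 50 µM. Gata3 averaged 4.42 CPM in primed cells and 5.96 CPM in 2i. The fibroblast and trophoblast sums were both lower in every six-day library than in every primed one, and lower in every 50 µM library than in every 2i library. The sum over 12 endoderm genes was 9.36 to 10.46 CPM in 2i, 5.22 to 6.31 CPM with 50 µM and 7.90 to 18.03 CPM in primed cells, with Cer1 and Ttr at 0 throughout. That over 9 mesoderm genes was 10.4 to 16.1 CPM in 2i, 9.34 to 13.4 CPM with 50 µM and 8.91 to 9.97 CPM in primed cells, with Msgn1 at 0 throughout. The 9 neuroectoderm genes summed to 73.4 to 93.8 CPM in 2i, 81.8 to 102 CPM with 50 µM and 108 to 115 CPM in primed cells. Their part in the values of the 9 genes was not tested. Of the 5 fibroblast and 3 trophoblast genes tested, 4 and 2 fell in 2i against primed cells, where 20.4% of all genes were called lower. Among them were Col1a1 (−1.83 ± 0.31), Acta2 (−3.40 ± 0.72), Ascl2 (−1.87 ± 0.28) and Krt7 (−2.75 ± 0.46), each with an edgeR adjusted p of at most 0.00502. With 50 µM against 2i, where 8.07% of all genes were called lower, 2 of the 5 fibroblast genes fell. They were Thy1 (−4.05 ± 0.43, edgeR adjusted p = 2.58e-06) and Col1a1 (−3.21 ± 0.52, edgeR adjusted p = 0.000783). Of the 3 trophoblast genes, 2 fell at 50 µM against 2i by edgeR, 0 by DESeq2 and 1 by limma voom. Each edgeR call was lost without any one of 4 libraries. Ascl2 gave −1.33 ± 0.40 (edgeR adjusted p = 0.0292; 0.0615 and 0.127 without 2i replicates 2 and 3, 0.105 and 0.0686 without 50 µM replicates 2 and 3). Gata3 gave −0.88 ± 0.28 (edgeR adjusted p = 0.036; 0.0792 and 0.102 without 2i replicates 2 and 3, 0.054 and 0.15 without 50 µM replicates 1 and 3). In 2i against primed cells the mesoderm genes Kdr (1.31 ± 0.30) and Mixl1 (2.58 ± 0.62) rose and the neural genes Pax6 (−2.85 ± 0.49) and Tubb3 (−0.54 ± 0.11) fell, each with an edgeR adjusted p of at most 0.00187. Some of these rest on few reads: Mixl1 had 5 counts over the primed libraries and 33 over those of 2i, and Pax6 had 51 and 7. The endoderm genes Dab2 and Gata4 were called in neither comparison, and with 50 µM against 2i Eomes (0.71 ± 0.25), Kdr (−0.53 ± 0.28) and Pax6 (0.82 ± 0.64) were not called. Of the 4 neuroectoderm genes tested, 1 was called there, Sox1, which was higher (edgeR adjusted p = 0.0204). As given above, that call was lost without single libraries.

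Genes whose log2 CPM followed a member most closely over the 12 libraries, among 8426 candidates, are named with Pearson's r as a description. The libraries share their groups, so any gene that differs between primed cells and 2i can score high. Replicate 1 stood apart in each group, so genes that share its deviation can score high too. The part of either in these r values was not tested. Utf1 was followed most closely by the Polycomb gene Phc1 (0.99) and by Lbr (0.98). Phc1 averaged 102 CPM in 2i, 111 CPM with 25 µM, 133 CPM with 50 µM and 268 CPM in primed cells, an order of levels that Utf1 shared. Sox15 was followed by Ube2a (0.987), Sfi1 (0.978) and Bag4 (0.977), and Ube2a averaged 117, 101 and 93.4 CPM in 2i with 0, 25 and 50 µM and 199 CPM in primed cells. Dppa4 was followed by Nsun2 (0.978), Pabpc4 (0.974) and Znhit6 (0.969), and Dppa2 by Clcn5 (0.956), Pkp3 (0.951) and Traf4 (0.948). For L1td1 the closest were Wdr74 (0.946), Hirip3 (0.944) and Enox1 (0.94), and for Dppa5a Tyms (0.908), Mthfd1 (0.901) and Mccc1 (0.888). The closest were Kif18a (0.941), Arhgap5 (0.874) and Ubr7 (0.849) for Pou5f1, Cep44 (0.909), Paip2 (0.898) and Cbwd1 (0.889) for Sox2, and Gng5 (0.916), Uhrf1bp1l (0.868) and Rad52 (0.86) for Sall4.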

How the data were processed

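The authors deposited 1 table of raw counts per gene for each library (56691 gene IDs and 114 spike-in features, which held 2 counts and were left out). The submitters' processing notes name FastQC, STAR, DESeq2 1.32.0 and the build GRCm38 (mm10), with no order; for the counting tool, annotation and strand setting: not given in the sources used here. Symbols and positions came from GENCODE and matched 52073 IDs, which held 98.4% of counts. Genes were filtered with filterByExpr and fitted over all 12 libraries with edgeR 4.0.16 (TMM, quasi-likelihood, Benjamini-Hochberg adjustment) in R 4.3.3; the dose slope used the 9 six-day libraries. Only the edgeR group fit was tried on simulated counts, scored for 2i against primed and drawn without the replicate effect seen here. The dose slope and the alternative fits were not tried on them. CPM are from TMM-adjusted library sizes, with a prior count of 2 where logged. Similar transcripts were found with blastn 2.17.0 (at least 85% identity over 200 bases).

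Alternatives were RLE scaling, library totals alone, DESeq2 1.42.0, limma voom 3.58.1, no filter, a filter of 2 CPM in 3 libraries, only the groups compared, a replicate block and each library left out. Replicate numbers are shared across groups in the labels. The main fit did not pair libraries by them, and only the replicate block did. Whether same-numbered libraries deviated together was checked by correlation. The correlation was 0.115 to 0.314 in every pair among the six-day groups. In comparisons with primed cells it was 0.0115 to 0.244, positive in every pair but weak in some. The members and lists were chosen with earlier results of these data known. The genes named from each list are the 2 with the smallest p in 2i against primed and the 2 in 50 µM against 2i; those not called are not all given with values, and list genes named beyond that were chosen after their values were seen. A gene that these rules name is not reported here; it stays in the counts of its list. The labels name no molecular identifiers, so floors cover counting error only.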

Additional observations from a re-analysis of the deposited data

How the results depend on the processing

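Calls of Utf1, Sox15, Dppa4, Dppa2 and L1td1 in 2i against primed held in all 16 alternatives, as did those of Utf1 and Sox15 at 50 µM against 2i. Counts of genes called moved most with the replicate block: 627 (124 without it) for 25 µM against 2i, 3240 (1994) for 50 µM against 2i, 542 (153) for 50 µM against 25 µM and 3239 (2007) for the dose slope. In comparisons with primed cells, same-numbered libraries correlated at 0.0115 to 0.244, all positive but weak in some pairs. There the block added Dppa5a in 2i (edgeR adjusted p = 0.00121) and in 25 µM (0.00897) and L1td1 in 50 µM (0.00448). It changed no other call of the 9 genes there. In all, 11 of 12 libraries correlated best with their own number. With no filter, 268 genes were called for 25 µM against 2i, and 329 genes and 1 of the 9 (Utf1) for 50 µM against 25 µM. With 1 library, or replicate 1 of every group, left out, calls ranged from 29 to 140 for 25 µM against 2i, 1217 to 1770 for 50 µM against 2i, 38 to 238 (0 to 1 of the 9) for 50 µM against 25 µM and 1206 to 2060 for the slope. In calls for 25 µM against 2i every library but 2i replicate 1 moved the count by over 1.5 times, for 50 µM against 2i and the slope 2i replicates 2 and 3, and for 50 µM against 25 µM 25 µM replicates 2 and 3 and 50 µM replicates 1 and 3, as did replicate 1 of every group left out together. Values that changed sign were all uncalled. With library totals alone these were Sox2 (−0.0071) and Dppa2 (−0.016) at 25 µM against 2i, Sox2 (−0.034) and Dppa4 (−0.042) at 50 µM against 2i, and the slopes of Sox2 (−0.017) and Dppa4 (−0.021); with voom Pou5f1 at 25 µM (0.016), and with the stricter filter Dppa4 at 50 µM (−0.0089). The same omissions gave, at 25 µM against 2i, −0.24 to 0.32 for Pou5f1, −0.012 to 0.085 for Sox2 and −0.037 to 0.058 for Dppa2; at 50 µM against 2i, −0.33 to 0.45 for Pou5f1, −0.042 to 0.071 for Sox2, −0.023 to 0.15 for Sall4 and −0.067 to 0.12 for Dppa4; at 50 µM against 25 µM, −0.27 to 0.37 for Pou5f1, −0.052 to 0.045 for Sox2 and −0.066 to 0.10 for Sall4; at 50 µM against primed, −0.13 to 0.048 for Sall4 and −0.10 to 0.18 for Dppa5a; and for the slope −0.15 to 0.23 for Pou5f1, −0.010 to 0.041 for Sox2, −0.10 to 0.0098 for Dppa2 and −0.037 to 0.063 for Dppa4. The cause was not tested. Sums with pseudogene copies and fits without replicate 1 were chosen after seeing the data, and both are among the 16 alternatives. The sums changed no call, but they could change little, as the copies held at most 0.66% of a gene's own counts. Reads left uncounted because they match several places would not be in these sums. A sum with features annotated by name as Pou5f1 pseudogenes was not run, as the annotation names none. Depth limits Pou5f1 most, at 28 counts in its lowest library.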

Other observations

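The nearest tested genes on each side of the 9, 15 genes outside the set, were looked at after the values were seen. Some lie far away, up to 1785207 bases for Nectin3 beside Dppa4. In 2i against primed 3 of the 15 rose and 5 fell, where 20% of all genes were called higher and 20.4% lower. At 50 µM against 2i, 2 rose and 1 fell, where 7.01% of all genes were called higher and 8.07% lower. Both neighbours of Utf1 on its strand fell with it in 2i against primed, Kndc1, a brain-expressed exchange factor 2251 bases away, with a log2 fold change of −3.38 ± 0.28 (edgeR adjusted p = 2.65e-09) and Gm16201, 5283 bases away, with −3.36 ± 0.53 (edgeR adjusted p = 2.27e-05). At 50 µM against 2i, where Utf1 rose, Kndc1 had −0.13 ± 0.40 and Gm16201 1.26 ± 0.69, neither called. Tcf19, which lies 1961 bases from Pou5f1 on the other strand, fell by 0.59 ± 0.20 in 2i against primed (edgeR adjusted p = 0.0182) and rose by 0.95 ± 0.19 at 50 µM against 2i (edgeR adjusted p = 0.00171), while Pou5f1 was called in neither. Patj, 7130 bases from L1td1, fell by 0.82 ± 0.23 at 50 µM against 2i (edgeR adjusted p = 0.021), where L1td1 rose. Kank4, on its other side, rose by 2.59 ± 0.29 in 2i against primed (edgeR adjusted p = 2.73e-07), where L1td1 fell.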
